A study of Mus musculus with 222 samples.

Results

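The cells described here are single primordial germ cells (PGCs) from mouse embryos in which Eed was deleted in the germ line (ECKO), taken at E12.5 and divided by whether they still contained Eed transcript. Of 192 single cells in the E12.5 tables, 96 came from ECKO embryos, and 62 of these had at least 50000 counts and at least 1500 genes with a count. A cell with at least 10 CPM (the count of Eed scaled by the cell's total count) is called Eed-positive here, and a kept cell below that level Eed-low. The rule gave 31 Eed-positive and 31 Eed-low ECKO cells. Of the Eed-low cells, 15 had no Eed count and 16 had Eed counts that amounted to less than 10 CPM.

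Polycomb repressive complex 2 (PRC2) is built from EED, SUZ12 and a methyltransferase, EZH1 or EZH2. The complex methylates lysine 27 of histone H3, a mark of repressed developmental genes that EED also binds. PGCs are the embryonic precursors of eggs and sperm. In the fetal gonad they silence the pluripotency genes they express on arrival, and they then enter meiosis in an ovary or arrest in a testis.

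All embryos shared a mixed C57BL/6;129S1/SvlmJ background. Females carrying 2 floxed Eed alleles and an Oct4-GFP reporter (OG; Eedfl/fl) were crossed to males carrying Blimp1-Cre and 1 floxed allele (BC; Eedfl/+), so that deletion depended on Cre from the Blimp1 driver. ECKO cells carry the label Eed -/-, and Control cells are labelled wild type. GFP-positive cells of E12.5 gonads were sorted into single wells and amplified by Smart-seq2, a full-length method without molecular identifiers, with 24 cells per embryo. There were 4 ECKO embryos (2 XX, 2 XY) and 4 Control embryos (2 XX, 2 XY). The tables' column names did not match any embryo number in the labels, so embryos of a sex and genotype are lettered A and B in column order, and equal letters do not pair an ECKO with a Control embryo. One XX ECKO cell has a genotype label of wild type and was grouped by its title, which gives cell number 24. The kept XX ECKO cell with that number was in embryo A and Eed-positive, with 24.1 CPM of Eed. It held 3571435 of the 11348742 counts of the Eed-positive cells of that embryo. Whether it is the cell labelled wild type cannot be told from the embryo numbers. The comparison of ECKO classes was also run without it, as one of the cell filters.

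Eed was the gene that chose the cells, so its levels are a description. In XX embryo A, 6 of 13 cells were Eed-positive (46.2%, exact Clopper-Pearson 95% interval 19.2 to 74.9%). In XX embryo B it was again 6 of 13 cells. In XY embryo A, 13 of 18 cells were Eed-positive (72.2%, 46.5 to 90.3%), and in XY embryo B 6 of 18 (33.3%, 13.3 to 59.0%). Both classes were thus present in each ECKO embryo, and the intervals overlapped. In Controls, 57 of 65 kept cells were Eed-positive, with 85.7% and 93.8% in the XX embryos and 76.9% and 90.9% in the XY embryos. Cells with no Eed count at all numbered 1, 5, 1 and 8 in XX A, XX B, XY A and XY B of ECKO, and 1 in the 4 Controls together. The threshold fell inside a continuous range, because the nearest Eed-low cells had 9.95, 8.57 and 7.93 CPM (20, 8 and 16 counts) and the nearest Eed-positive cells 10.2, 10.7 and 11.1 CPM (23, 23 and 31 counts).

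Eed-positive ECKO cells had a median of 27.5 CPM of Eed (range 10.2 to 73.2), and Eed-positive Control cells a median of 43.9 CPM (11.9 to 203). In 11 of the 65 Control cells Eed was above the highest value of any ECKO cell. When the counts of the cells of each class were summed per embryo, Eed in the Eed-positive sums was 22.8, 34.0, 23.6 and 20.3 CPM in XX A, XX B, XY A and XY B. In the Eed-low sums it was 6.26, 2.05, 6.46 and 1.28 CPM, and in the Control embryos 58.2, 60.7, 39.0 and 50.4 CPM. Each Eed-positive sum was therefore lower than each Control embryo. A count assigned to Eed by gene does not show whether the transcript was intact, since exons outside the deleted part can still be read. In the bulk PGC libraries of the same study, Eed had a median of 24.7 CPM in E11.5 XX ECKO (13.3 to 28.3, n = 4) and 79.5 CPM in its Controls (73.2 to 86.4, n = 3). In E11.5 XY it was 37.9 CPM (15.7 to 54.3, n = 4) against 99.5 CPM (74.7 to 149, n = 4), and in E13.5 XY 12.7 CPM (2.81 to 14.3, n = 3) against 87.4 CPM (44.4 to 116, n = 4). In bulk RNA, fewer cells with Eed and less Eed per cell cannot be told apart.

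**Figure D1:**
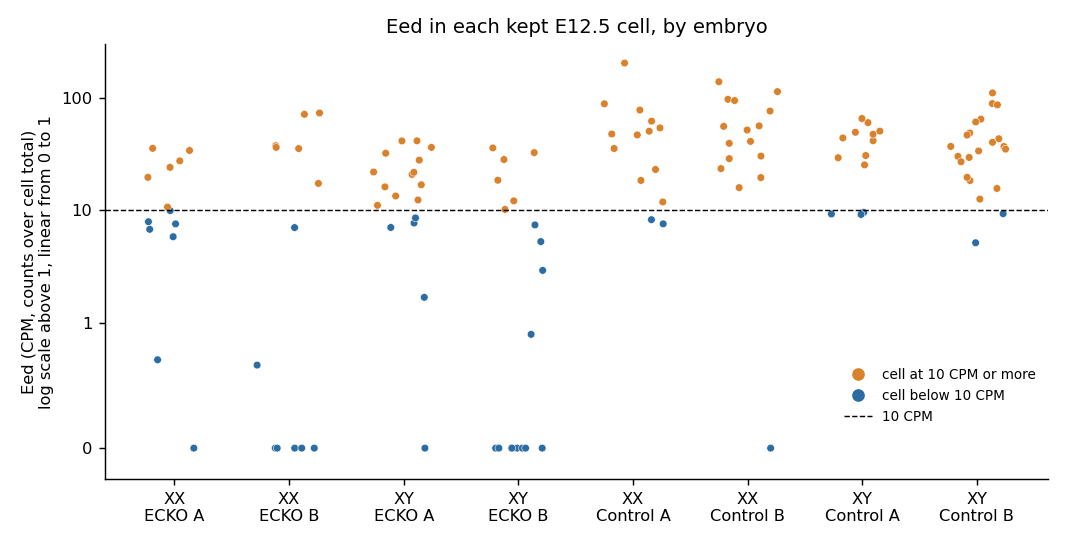
Eed in every kept E12.5 cell (points), in CPM of the cell's total counts on a scale that is linear from 0 to 1 and logarithmic above, for the 4 ECKO and 4 Control embryos. The dashed line marks 10 CPM: 31 of 62 ECKO cells and 57 of 65 Control cells lie on or above it.

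Whether a low transcript is seen in a cell depends on how deeply the cell was read, so depth was compared first. Kept ECKO cells held 70194 to 4424783 counts. In XX embryo B the median Eed-low cell had 519485 counts and 5340 genes, and the median Eed-positive cell 1812172 counts and 7422.5 genes. In XY embryo A the medians were 592039 counts and 7056 genes in Eed-low cells and 1460607 counts and 7566 genes in Eed-positive cells. In the other two embryos the classes were close, at 8011 and 8110 genes in XX A and at 6856 and 6768 in XY B. Over the 4 embryos the mean difference of medians, Eed-low minus Eed-positive, was -477987 counts (exact two-sided sign-flip permutation p = 0.5, lower in 2 of 4 embryos) and -651 genes (exact p = 0.25, lower in 3 of 4). With 4 embryos the smallest p this test allows is 0.125. Cells with no Eed count, set against cells with any, had a mean difference of -769142 counts (exact p = 0.125, lower in 4 of 4 embryos) and -2255 genes (exact p = 0.25, lower in 3 of 4). Across the cells of an embryo, Spearman's rho of Eed CPM with total counts was 0.0934, 0.187, 0.226 and 0.0389 (13, 13, 18 and 18 cells in XX A, XX B, XY A and XY B), where both measures share the cell's total. With genes detected, rho was 0.407, 0.300, -0.110 and -0.0205 in the same order.

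**Figure D2:**
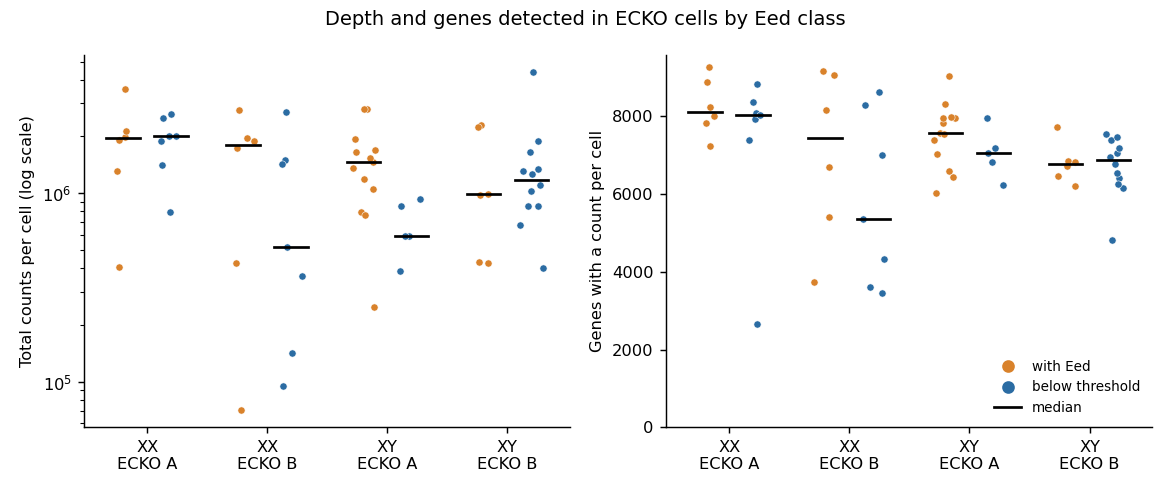
Total counts per cell (left, log scale) and genes with a count per cell (right) for Eed-positive and Eed-low ECKO cells of each embryo, with points for cells and bars for class medians. Eed-low cells had lower medians in XX embryo B and XY embryo A, and similar ones in the other 2 embryos.

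Both classes carried the germ cell markers. Of 10 markers (Ddx4, Dazl, Dppa3, Pou5f1, Kit, Dnd1, Nanos3, Mael, Gtsf1 and Ifitm3), the median cell had 8 at 10 CPM or more in Eed-positive cells, in Eed-low cells and in Controls. The summed level of the 10 markers was 1703 to 3599 CPM in the 4 Eed-positive sums, 2024 to 2673 CPM in the 4 Eed-low sums and 3388 to 4588 CPM in the Controls, so the germ cell sums of the classes overlapped and most lay below the Controls. Fewer than 5 markers were present in 4 of 31 Eed-low cells, 1 of 31 Eed-positive cells and 0 of 65 Control cells. The 4 Eed-low cells had no Eed count, and one of them, in XX embryo A, had 2667 genes and 15436 CPM of stress-response genes. The 1 Eed-positive cell, in XX embryo B, had the highest Eed of any ECKO cell (73.2 CPM) and 2419 CPM of interstitial cell markers, with Pdgfra at 1388 CPM and Col3a1 at 445 CPM. No ECKO cell with 5 or more germ cell markers exceeded 99.7 CPM of interstitial markers, while supporting cell markers reached 1836 CPM in these 57 cells, above the 993 CPM of the Eed-positive cell with interstitial markers. The edgeR count of called genes between the ECKO classes, by sex and against Controls is also given without these 5 cells.

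Markers of other gonadal cells were lower than the germ cell markers in each sum. The 14 supporting cell markers summed to 191 to 348 CPM in Eed-positive sums, 139 to 672 CPM in Eed-low sums and 26.8 to 147 CPM in Controls. Krt18 was present at 10 CPM or more in each of these sums, while Amh and Dhh were at 0 in each ECKO sum. Of the 16 interstitial markers, 10 to 16 were at 0 in each ECKO sum, and their total was 0.441, 525, 10.6 and 12.2 CPM in the Eed-positive sums and at most 4.90 CPM in the Eed-low sums. The 9 endothelial markers, which include Pecam1, a gene also expressed by germ cells, summed to 6.32 to 70.0 CPM, 4.88 to 23.6 CPM and 60.9 to 154 CPM in the same order, and the 14 blood markers to at most 4.59 CPM. The 19 stress-response genes summed to 4642 to 7350 CPM in Eed-positive sums and 2660 to 8999 CPM in Eed-low sums, and to 4050 to 4874 CPM in Controls. The part of these markers in the gene differences below was not tested beyond leaving out the 5 cells.

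The main comparison asked which other genes differed between Eed-low and Eed-positive cells of the same embryo. Counts were summed per embryo and class, giving 3355769 to 19274644 counts per sum, and edgeR's quasi-likelihood test was used with the embryo as a block. Of 11187 genes tested, 0 had a Benjamini-Hochberg adjusted p under 0.05 (0% of genes), and the smallest adjusted p was 0.685. At an unadjusted p under 0.05 there were 429 genes (3.83%), of which 260 were higher in Eed-low cells (2.32%) and 169 lower (1.51%). A gene was higher in Eed-low cells in 4 of 4 embryos in 737 cases (6.59%) and lower in 4 of 4 in 940 (8.4%). limma called 0 genes and had 771 at an unadjusted p under 0.05, while DESeq2 called 91, with 60 higher and 31 lower. Without the 5 cells poor in germ cell markers edgeR again called 0 genes, with 439 at an unadjusted p under 0.05. With the embryo as a block, the p-values set the class difference against its variation from embryo to embryo. A p above the threshold does not show that the classes were alike.

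The genes that led this ranking are given by their CPM in XX A, XX B, XY A and XY B, and none of them passed the edgeR test. Ncln, which encodes the endoplasmic reticulum protein nicalin, had 20.1, 68.9, 59.2 and 46.9 CPM in Eed-positive sums. In the Eed-low sums it had 86.85, 284, 223 and 226 CPM, higher in all 4 embryos and with no overlap between classes. The difference was 2.10 ± 0.33 on the log2 scale (SE; edgeR adjusted p = 0.685, DESeq2 adjusted p = 1.2e-06). Controls had 83.5, 201, 136 and 76.1 CPM of Ncln, within the range of the Eed-low sums in 2 of 4 embryos and just under it in the others. The sum of Eed-low cells in XX embryo B owed 87.5% of its Ncln counts to 1 cell.

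Ing1, a reader of histone H3 lysine 4 methylation in a Sin3 deacetylase complex, had 16.994, 20.5, 53.2 and 2.16 CPM in Eed-positive sums and 122, 79.6, 265 and 71.3 CPM in Eed-low sums. The difference was 2.96 ± 0.60 (log2; edgeR adjusted p = 0.9996, DESeq2 adjusted p = 6.7e-05), and the classes did not overlap. Single cells weighed heavily here, since 1 cell gave 86.6%, 98.8%, 74.4% and 44.7% of the Ing1 counts of the 4 Eed-low sums, and Ing1 reached 10 CPM in 16 of 31 Eed-low and 19 of 31 Eed-positive cells. Ocel1 had 7.27, 22.3, 43.1 and 12.4 CPM in Eed-positive sums and 30.1, 101, 146 and 73.3 CPM in Eed-low sums. Scap, the chaperone of the sterol-regulated SREBP factors, had 32.5, 35.3, 58.2 and 122 CPM against 107, 138, 223 and 219 CPM. Pmf1, a kinetochore protein, had 148, 94.6, 223 and 122 CPM against 308, 398, 410 and 256 CPM. In Ocel1 the classes overlapped across embryos although each embryo had the higher value in Eed-low cells. Scap was like it, whereas Pmf1 did not overlap. Of the Eed-low counts in XX embryo B, however, 1 cell gave 79.1% for Scap and 86.0% for Pmf1.

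Mt1, a metallothionein that binds zinc, had 978, 1204, 933 and 296.04 CPM in Eed-positive sums and 1864, 3872, 1765 and 461 CPM in Eed-low sums, while the Controls had 249, 332, 23.5 and 358 CPM. Tubb3, a beta-tubulin, had 29.4, 19.9, 138 and 66.6 CPM against 154, 42.9, 283 and 193 CPM, with 0.0336, 10.4, 2.69 and 20.8 CPM in Controls. For Mt1 and Tubb3 the sums of both ECKO classes were thus mostly above the Controls, and the Eed-low sums were further above. Tubb3, however, reached 10 CPM in 15 of 31 Eed-low and 19 of 31 Eed-positive cells. In the Eed-low sums of XX B and XY A, 1 cell gave 93.9% and 74.3% of the Tubb3 counts. Fam78b had 0, 0, 0.512 and 0 CPM in Eed-positive sums and 8.61, 7.64, 34.1 and 8.40 CPM in Eed-low sums. It reached 10 CPM in 8 of 31 Eed-low cells and 0 of 31 Eed-positive cells (which allows up to 9.68% of cells). Of its counts in the 4 Eed-low sums, 1 cell gave 78.6%, 80.5%, 100% and 43.7%.

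Among genes lower in Eed-low cells, Scd2, a stearoyl-CoA desaturase of fatty acid synthesis, had 58.6, 358, 70.7 and 106 CPM in Eed-positive sums and 26.3, 36.7, 6.10 and 49.0 CPM in Eed-low sums. The difference was -2.23 ± 0.57 (log2; edgeR adjusted p = 0.9996), the classes did not overlap, and Controls lay between 35.5 and 52.8 CPM. The Scd2 value of 358 CPM in XX embryo B came for 72.1% from 1 cell, the Eed-positive cell with interstitial markers (1424 CPM of Scd2). Mib2, an E3 ligase for Notch ligands, had 9.72, 22.98, 41.8 and 116 CPM against 0.662, 1.30, 9.69 and 34.8 CPM. Of the Mib2 counts of the 4 Eed-positive sums, 1 cell gave 100%, 96.7%, 40.5% and 87.7%. Mib2 reached 10 CPM in 10 of 31 Eed-positive and 5 of 31 Eed-low cells. Gtf2e1, a subunit of the general transcription factor TFIIE, had 121, 36.2, 68.3 and 57.3 CPM against 36.3, 3.36, 2.51 and 24.8 CPM. Slk, a serine/threonine kinase, had 49.2, 121, 52.95 and 119 CPM against 13.3, 68.8, 3.59 and 29.5 CPM. Scd2, Mib2, Gtf2e1 and Slk were each lower in the Eed-low sums in 4 of 4 embryos. For Gtf2e1, 1 cell gave 71.25% and 74.6% of the Eed-positive counts in XY A and XY B. For Slk, 1 cell gave 96.5% of the Eed-low counts in XX B.

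Ramp2, a receptor activity modifying protein, had 15.8, 98.1, 3.64 and 29.9 CPM in Eed-positive sums and 0.147, 0, 0 and 0 CPM in Eed-low sums. It reached 10 CPM in 1 Eed-positive cell of each embryo and in 0 of 31 Eed-low cells (which allows up to 9.68% of cells), and these single cells gave 96.9 to 100% of the counts. Its Eed-positive level in each embryo was therefore the level of 1 cell. For XX embryo B this was the Eed-positive cell with interstitial markers (541 CPM of Ramp2).

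**Figure D3:**
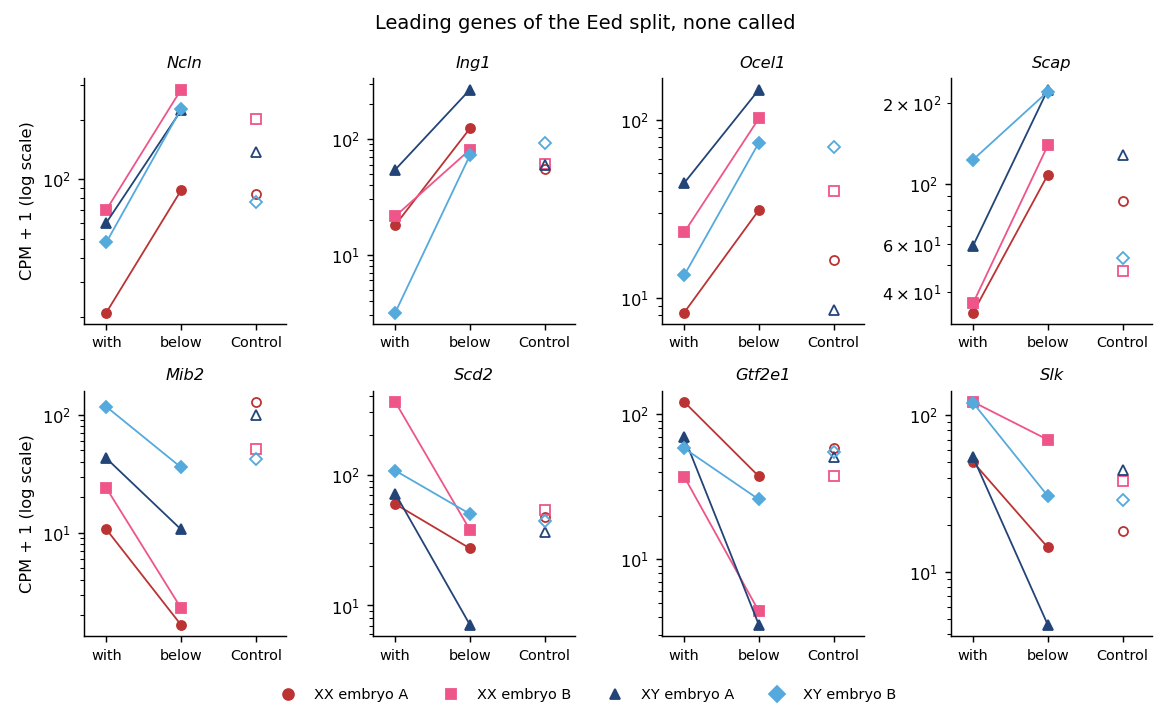
CPM plus 1 (log scale) of 8 genes at the head of the ranking, in the summed Eed-positive and Eed-low cells of each ECKO embryo (filled symbols joined by lines) and in Control embryos (open symbols; the same shape does not mean a related embryo). In each panel all 4 lines slope the same way, and none of the genes passed the edgeR test.

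The direction of several of these differences depended on where the cells were split. Ncln was 2.10 higher in Eed-low cells with the 10 CPM threshold but -0.95 (log2) in cells with no Eed count against cells with any, and -0.11 when the cells with Eed counts under 10 CPM were left out. Tubb3 went from 1.53 to -2.10 and -1.23 under the same splits, and Mt1 from 1.05 to -0.27 in the first of them. Depth also differed more in the split of any count against none, as given above. In these splits 1 cell stood for the whole class without Eed in XX embryo A, the cell with 2667 genes, and 1 cell in XY embryo A. Scd2 went from -2.23 to 0.38 with a threshold of 25 CPM, and Gtf2e1 from -2.69 to 0.0049. By contrast, Ing1, Scap, Pmf1, Mib2 and Slk kept their direction under all 4 splits. edgeR called 0 genes in each split, with 344, 180 and 385 at an unadjusted p under 0.05 for any count against none, 10 CPM against none, and 25 CPM.

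**Figure D4:**
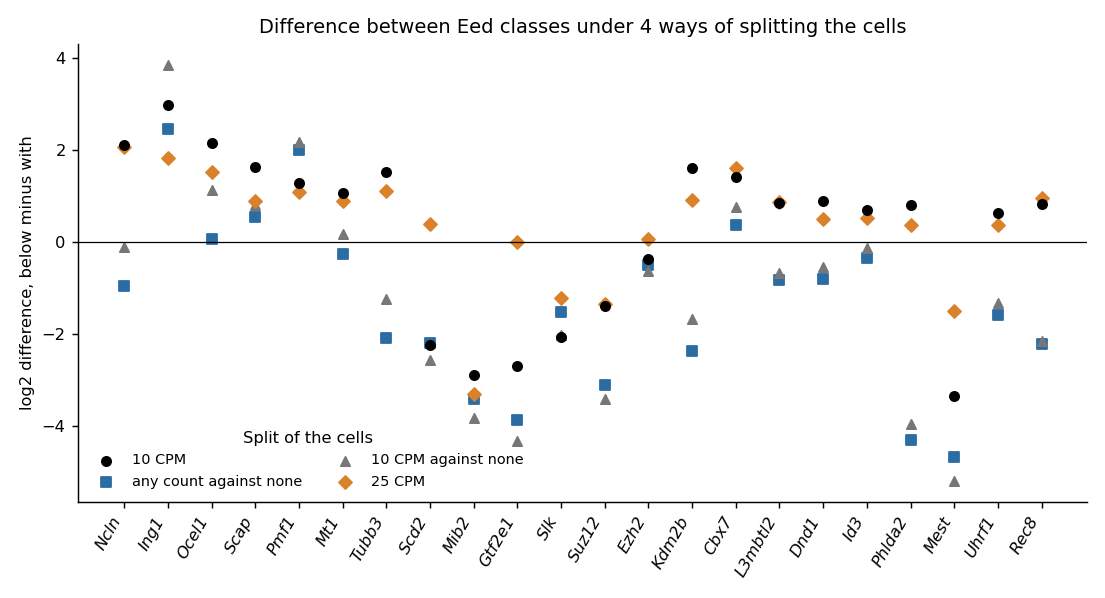
Difference between Eed classes (log2, Eed-low minus Eed-positive; edgeR estimates over 4 embryos) for 22 genes under 4 ways of splitting the cells. Ncln, Tubb3, Kdm2b, L3mbtl2, Dnd1, Id3, Phlda2, Uhrf1 and Rec8 lie above 0 at 10 CPM and below 0 in both splits that take only cells with no Eed count as the low class.

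The other subunits of PRC2 were examined next. Of 5 core subunits tested, 0 were called and 1 was higher in Eed-low cells, with a median difference of -0.35 against -0.04 over all 11187 genes (log2). Suz12, the subunit that holds the complex together, had 11.9, 48.5, 15.9 and 60.3 CPM in Eed-positive sums and 9.86, 15.7, 3.59 and 19.7 CPM in Eed-low sums. It was lower in Eed-low cells in 4 of 4 embryos, with overlapping classes (-1.40 ± 0.74, log2; unadjusted p = 0.0889, edgeR adjusted p = 0.9996), and reached 10 CPM in 18 of 31 Eed-positive and 12 of 31 Eed-low cells. The 60.3 CPM of Suz12 in XY embryo B came for 79.1% from 1 cell. Ezh2, the catalytic subunit of dividing cells, had 55.4, 89.6, 71.7 and 53.1 CPM against 44.4, 113, 37.0 and 35.0 CPM, lower in 3 of 4 embryos (-0.37 ± 0.45, log2). Rbbp4, a histone-binding subunit shared with other complexes, had 425, 286, 150 and 191 CPM against 277.6, 273, 94.4 and 180 CPM. The 4 accessory subunits tested, of 7 listed, were all positive, with a median of 0.25 and 0 at an unadjusted p under 0.05.

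Of the 22 subunits of Polycomb repressive complex 1 (PRC1), which binds and ubiquitinates Polycomb target chromatin, 22 were tested, 0 were called and 12 were higher in Eed-low cells, with a median of 0.24. Of these, 3 had an unadjusted p under 0.05, a share of 3 in 22 beside 2.32% of all genes in that direction. Kdm2b, which brings a PRC1 variant to CpG islands, had 38.0, 42.9, 67.5 and 23.7 CPM in Eed-positive sums and 65.6, 462, 103 and 76.3 CPM in Eed-low sums (1.60 ± 0.53, log2; edgeR adjusted p = 0.9996). Of the 462 CPM, 86.5% came from 1 cell of XX embryo B. Cbx7, a subunit that reads the H3K27 mark, had 51.3, 15.7, 18.6 and 91.2 CPM against 76.1, 33.4, 226 and 144 CPM. L3mbtl2, a subunit of a variant PRC1, had 58.3, 30.5, 86.3 and 258 CPM against 89.7, 56.9, 280.7 and 278.6 CPM. All 3 were higher in the Eed-low sums in 4 of 4 embryos, with overlapping classes. In XY embryo A, 1 cell gave 92.0%, 74.9% and 79.8% of the Eed-low counts of Kdm2b, Cbx7 and L3mbtl2. In XX embryo B, 1 cell gave 71.5% for Cbx7 and 72.1% for L3mbtl2. Kdm2b reached 10 CPM in 24 of 31 Eed-low and 28 of 31 Eed-positive cells. For L3mbtl2 these were 21 and 23 of 31 cells, and for Cbx7 24 and 20 of 31. Kdm2b and L3mbtl2 were lower when only cells with no Eed count formed the low class.

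Germ cell genes showed no call in either direction. Of 22 meiosis genes tested of 27 listed, 10 were higher in Eed-low cells (median -0.21), of 33 pluripotency and early PGC genes 19 (median 0.10), and of 24 genes of genome defence or late germ cells 13 (median 0.07). Of 11 male germ cell differentiation genes 2 were higher (median -0.63), and of 18 retinoic acid and BMP response genes 10 (median 0.18). Dnd1, an RNA-binding protein needed for germ cell survival, had 415, 81.0, 356 and 414 CPM in Eed-positive sums and 588, 159, 693 and 870 CPM in Eed-low sums (0.89 ± 0.26, log2; unadjusted p = 0.00677, edgeR adjusted p = 0.9996). It was higher in Eed-low cells in 4 of 4 embryos, and each of the 8 sums was below each Control (1056 to 1307 CPM). Id3, a BMP target, had 1354, 633, 1163 and 696 CPM against 2147, 1536, 1632 and 855 CPM.

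Counts in the remaining groups were as follows. Of 8 Hox genes tested of 39 listed, 5 were higher in Eed-low cells (median 0.38), and of 23 other developmental transcription factors 9 (median -0.45). Of 20 G1/S genes 14 were higher (median 0.15), of 23 G2/M genes 10 (median -0.15), and of 8 cyclins and CDK inhibitors 5 (median 0.22). Of 21 p53 target and apoptosis genes 5 were higher (median -0.39), of 8 DNA methylation genes 4 (median 0.14), and of 16 histone-modifying enzymes 7 (median -0.11). None of these genes was called. Among 26 imprinted genes 9 were higher (median -0.27). Phlda2, an imprinted gene expressed from the maternal allele, had 1679, 1235, 374 and 169 CPM in Eed-positive sums and 2866, 2725, 515 and 284 CPM in Eed-low sums. Mest, an imprinted gene expressed from the paternal allele, had 37.6, 304, 17.4 and 19.4 CPM against 18.5, 8.203, 10.8 and 0.0532 CPM, and 99.8% of the counts behind the 304 CPM came from the Eed-positive cell with interstitial markers.

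Each class was then set beside the Controls, which the 2 comparisons share, so their results are not independent of each other. For Eed-positive cells 3 of 11366 genes were called (0.0264%), 2 higher (0.0176%) and 1 lower (0.0088%). At an unadjusted p under 0.05 there were 1385 (12.2%), of which 675 were higher (5.94%) and 710 lower (6.25%). For Eed-low cells 2 of 11186 genes were called (0.0179%), both higher. At an unadjusted p under 0.05 there were 985 (8.81%), of which 549 were higher (4.91%) and 436 lower (3.9%). DESeq2 called 687 and 449 genes on the same sums. Without the 5 cells poor in germ cell markers edgeR called 0 and 2. Leaving out 1 embryo at a time gave 0 to 10 calls for Eed-positive cells, with 0 without XX ECKO A, XX ECKO B, XY ECKO A, XX Control B or XY Control A, 1 without XY Control B and 10 without XY ECKO B. It gave 1 to 7 for Eed-low cells, with 7 without XX ECKO A and 1 without any of XX ECKO B, XY ECKO A, XY ECKO B, XX Control B and XY Control A.

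The genes called in Eed-positive cells were Cd63, P3h4 and Porcn. Cd63, a tetraspanin of late endosomes, had 158, 451, 148 and 104 CPM in Eed-positive sums, 112, 267, 119 and 78.9 CPM in Eed-low sums and 13.6, 2.34, 0.708 and 1.66 CPM in Controls. Neither ECKO class overlapped the Controls. Against Controls the difference was 5.94 ± 0.73 (log2; edgeR adjusted p = 0.0459) in Eed-positive and 5.45 ± 0.78 (adjusted p = 0.0646) in Eed-low cells. Between the classes Cd63 differed by -0.48 ± 0.29, lower in Eed-low cells in 4 of 4 embryos, so the classes fell on either side of the threshold against Controls without a called difference between them. It reached 10 CPM in 30 of 31 Eed-positive and 26 of 31 Eed-low cells.

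Porcn, the acyltransferase that modifies Wnt proteins, had 87.2, 65.0, 11.05 and 6.25 CPM in Eed-positive sums, 93.4, 39.5, 63.2 and 62.5 CPM in Eed-low sums and 367, 388, 95.2 and 68.6 CPM in Controls. The difference from Controls was -2.78 ± 0.36 (log2; edgeR adjusted p = 0.0481) in Eed-positive and -1.44 ± 0.52 (adjusted p = 0.450) in Eed-low cells, and that between classes 1.30 ± 0.81 (adjusted p = 0.9996). In XX embryo A the classes were close, in XX embryo B the Eed-low sum was lower, and in both XY embryos it was higher. P3h4, which takes part in collagen modification, had 70.6, 23.3, 1.02 and 2.76 CPM in Eed-positive sums (edgeR adjusted p = 0.0459) and 5.30, 0, 24.1 and 4.202 CPM in Eed-low sums, where it did not pass the filter on low counts. Controls had at most 0.036 CPM of P3h4.

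Eed-low cells had calls for Plin3 and Nkx2-5. Plin3, a lipid droplet protein, had 188, 70.7, 77.5 and 30.5 CPM in Eed-low sums (edgeR adjusted p = 0.00333) and 177, 42.1, 5.35 and 0 CPM in Eed-positive sums, while Controls had 0.0671, 0, 0 and 0 CPM. It reached 10 CPM in 13 of 31 Eed-low cells, 11 of 31 Eed-positive cells and 0 of 65 Control cells, a count that allows a share of up to 4.62%. Between the classes Plin3 had an unadjusted p of 0.0712. The XX embryos had similar values in both classes, and the XY embryos had them mainly in Eed-low cells. Plin3 had been singled out in an earlier look at these same cells, so its call is not independent evidence. Nkx2-5, a cardiac homeobox factor, had 26.6, 31.9, 31.6 and 32.2 CPM in Eed-low sums (edgeR adjusted p = 0.0310) and 8.62, 2.79, 14.1 and 47.1 CPM in Eed-positive sums (adjusted p = 0.0611), with at most 0.0708 CPM in Controls. In each XX class its counts came from 1 cell. Leaving out embryos raised the adjusted p of Nkx2-5 to at most 0.122 and that of Plin3 to at most 0.0282.

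Stra8, the gene that licenses meiotic entry, followed the sex of the embryo in both classes. In XX A and XX B it had 292 and 73.9 CPM in Eed-positive sums and 292 and 310 CPM in Eed-low sums, with 5.00 and 0.036 CPM in XX Controls. In XY A and XY B it had 4.50 and 2.04 CPM in Eed-positive sums and 0.359 and 36.5 CPM in Eed-low sums, with 0 in XY Controls. It reached 10 CPM in 6 of 6 and 5 of 6 Eed-positive XX cells (intervals from 54.1 to 100% and from 35.9 to 99.6%) and in 7 of 7 Eed-low cells of each XX embryo (from 59.0%). In XX Controls it did so in 1 of 14 and 0 of 16 cells (up to 18.8%). The adjusted p against Controls was 0.109 for Eed-positive and 0.139 for Eed-low cells, and the class difference was 1.09 ± 0.99 (log2; adjusted p = 0.9996). Stra8 transcript was thus found in XX ECKO cells that had Eed transcript as well as in those below the threshold. Sycp3, of the synaptonemal complex, had 25.8, 17.5, 25.6 and 4.57 CPM in Eed-positive sums, 6.92, 35.8, 3.59 and 5.74 CPM in Eed-low sums and 0.935 to 4.36 CPM in Controls.

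Pou5f1, a pluripotency factor, had 76.1, 45.6, 6.32 and 86.1 CPM in Eed-positive sums, 73.2, 0.559, 37.7 and 103 CPM in Eed-low sums and 239, 323, 392 and 202 CPM in Controls. Each sum of either class was below each Control. The difference from Controls was -2.46 (log2; edgeR adjusted p = 0.165) in Eed-positive and -2.51 (adjusted p = 0.478) in Eed-low cells, and that between classes -0.19 ± 1.24. Pou5f1 reached 10 CPM in 0 of 7 Eed-low cells of XX embryo B but in 12 of 12 Eed-low cells of XY embryo B. Nanog, another pluripotency factor, had 41.9, 6.83, 8.83 and 77.3 CPM against 10.45, 9.88, 44.2 and 64.3 CPM, with 36.5 to 116 CPM in Controls. Of the pluripotency and early PGC genes, 12 of 33 were lower and 1 higher at an unadjusted p under 0.05 in Eed-positive cells (median -0.86, all genes 0.00), where 6.25% of all genes were lower. In Eed-low cells 8 of 32 were lower and 0 higher (median -0.81, all genes -0.02), where 3.9% of all genes were lower.

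Further genes lay apart from the Controls in both classes without passing the threshold. Ccnd2, a G1 cyclin, had 30.1, 261, 166 and 119 CPM in Eed-positive sums, 13.1, 112, 229 and 141 CPM in Eed-low sums and 0.432 to 14.02 CPM in Controls (5.48 and 5.11 on the log2 scale, edgeR adjusted p = 0.109 and 0.0984). Uhrf1, the partner of the maintenance methyltransferase DNMT1, had 50.3, 157, 114 and 113 CPM, 114, 186, 215 and 124 CPM, and 3.25 to 19.6 CPM in the same order (adjusted p = 0.109 and 0.0743). Rec8, a meiotic cohesin, had 74.9, 60.5, 30.6 and 25.4 CPM, 94.1, 124, 72.9 and 39.8 CPM, and 5.74 to 13.9 CPM. Jak3, a cytokine receptor kinase, was lower, with 17.9, 9.9996, 50.3 and 69.5 CPM, 9.86, 18.5, 25.8 and 24.9 CPM, and 122 to 229 CPM in Controls (adjusted p = 0.138 and 0.0646). Like Plin3, Jak3 had been singled out in an earlier look at these same cells, so its separation from Controls is not independent evidence. In all 4 genes except for the lowest Ccnd2 sum, the sums of both classes lay outside the Control range. Of the counts behind the 261 CPM of Ccnd2 in XX embryo B, however, 98.0% came from a single Eed-positive cell. That value therefore does not show a level shared by the Eed-positive cells of this embryo. For Rec8, a single cell gave 94.1% of the Eed-low counts in XY embryo A.

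Among gene groups set beside the Controls, 11 genes that an earlier analysis of bulk ECKO libraries at E11.5 found raised in both sexes had medians of 2.06 in Eed-positive cells (10 tested, 5 higher at an unadjusted p under 0.05) and 2.52 in Eed-low cells (11 tested, 6 higher). The 3 genes it found lowered, Gnai1, Hmgn5 and Pfkp, had medians of -1.01 and -1.22. Meiosis genes had medians of 0.68 and 0.08, with 5 of 23 and 4 of 22 higher and 1 lower in each. Imprinted genes had a median of 1.08 in each comparison, with 9 of 24 and 7 of 24 higher and 1 lower in each. Over all genes, 5.94% were higher and 6.25% lower at that p in Eed-positive cells, and 4.91% higher and 3.9% lower in Eed-low cells. The 39 Hox genes summed to 38.6 to 203 CPM in Eed-positive sums, 39.9 to 96.7 CPM in Eed-low sums and 0.0348 to 14.2 CPM in Controls, so the Hox sums of both classes were above the Controls.

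**Figure D5:**
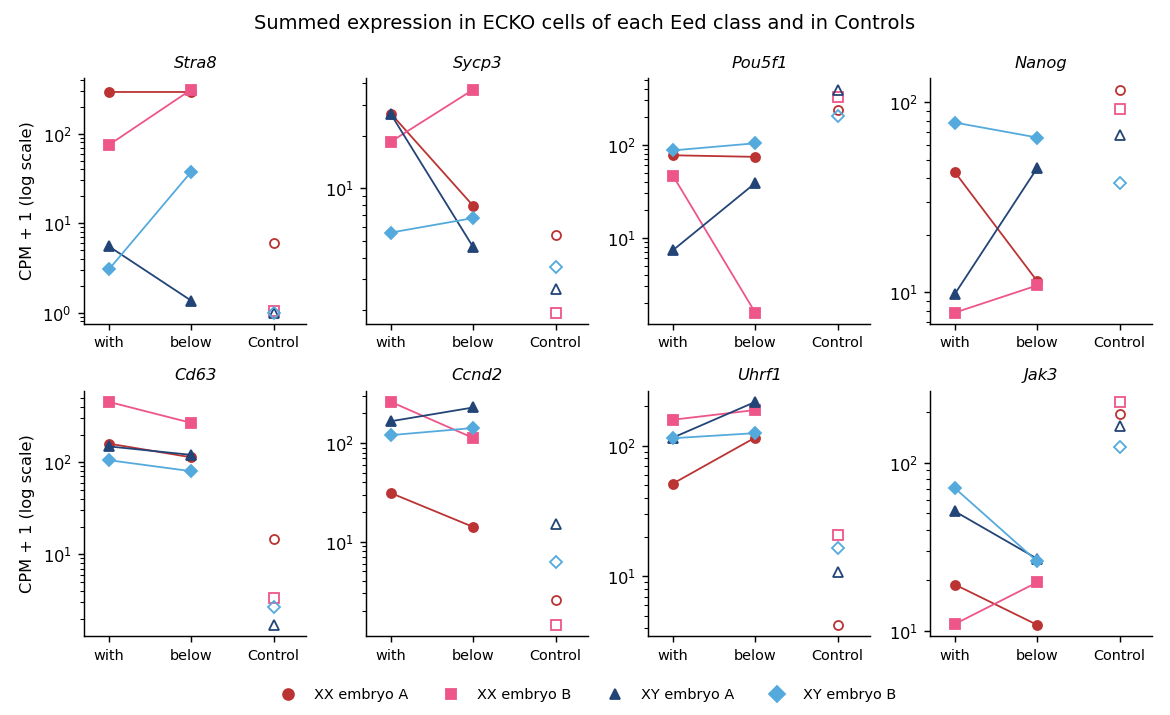
CPM plus 1 (log scale) of 8 genes in summed Eed-positive and Eed-low cells of each ECKO embryo (filled, joined) and in Control embryos (open; the same shape does not mean a related embryo). For Cd63, Uhrf1, Jak3 and Pou5f1 the symbols of both classes do not overlap those of Controls. Of these, only Cd63 in Eed-positive cells passed the edgeR test, and Jak3 had been singled out earlier in these same cells. The lines between classes run in both directions for Stra8, Sycp3, Pou5f1, Nanog, Ccnd2 and Jak3.

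Whether the class difference itself differed between XX and XY was tested by an interaction term. Of 13097 genes, 1 was called (0.00764%), with 484 at an unadjusted p under 0.05 (3.7%), of which 226 had a more positive difference in XY (1.73%) and 258 a more negative one (1.97%). The called gene was Lefty2, an inhibitor and target of Nodal signalling, at 9.77 ± 1.13 (log2, XY difference minus XX difference; edgeR adjusted p = 0.000494). Lefty2 had 63.5, 0, 382 and 898 CPM in Eed-positive sums and 0.0736, 0, 600 and 872 CPM in Eed-low sums, with 0, 6.69, 1115 and 388 CPM in Controls. Its high values were thus in XY embryos of both genotypes and in both classes, and the interaction rested on XX embryo A, where 1 Eed-positive cell gave 96.6% of 803 Lefty2 counts. Without XX embryo A the estimate was 0.28 (adjusted p = 1) and without XY embryo A 9.43 (adjusted p = 0.0611). DESeq2 gave an adjusted p of 0.656, and thinning each cell to 50000 counts gave 5.48 (adjusted p = 0.736). Without the 5 cells poor in germ cell markers 1 gene was called, again Lefty2 (adjusted p = 7.6e-05). Leaving out XX A, XX B, XY A or XY B gave 185, 14, 0 and 1 calls in all.

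The same split by detection of Eed was also made in Control cells. Only 8 of 65 Control cells were Eed-low, 1 to 3 per embryo, so their sums rest on few cells. Of 9510 genes, 0 were called (0%), with 434 at an unadjusted p under 0.05 (4.56%), and DESeq2 called 107. Of the 434 genes, 6 were higher (0.0631%) and 428 lower (4.5%) in the Eed-low Control cells, and the median over all genes was -1.10 (log2), whereas in ECKO it was -0.04. Genes lower in 4 of 4 Control embryos made up 17.8%, and genes higher in 4 of 4 made up 1.1%. The share of genes at an unadjusted p under 0.05 was 4.56% in the Control split, beside 3.83% in ECKO. The Eed-low Control sums held 140754 to 4737904 counts and the Eed-positive Control sums 11900172 to 27519048 counts. With sums so unequal and so few cells, the Control share cannot serve as a background rate for the ECKO split. The difference between the ECKO and Control splits was not tested.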

How the data were processed

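Single PGCs were sorted and amplified by Smart-seq2, per the labels' protocols. The authors deposited whole-number counts per gene symbol (24391 symbols) with 1 column per cell or bulk library. HISAT2, edgeR and mm9 are named in the submitters' processing notes, with no version or role. For the counting program, annotation and strand setting, the sources used here give no name, so overlapping, antisense and near-identical genes cannot be told apart. The 8 bisulfite libraries were not analysed here, and bulk libraries were used only for the level of Eed. The labels' extract text calls the gonads female for cells of both sexes, and sex was taken from the titles.

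CPM were computed here from the deposited counts. CPM of single cells and of marker sums used total counts, and CPM of summed classes used TMM factors. Counts of kept cells were summed per embryo and Eed class and tested in edgeR 4.0.16 (R 4.3.3) with filterByExpr, TMM and the quasi-likelihood F test. The ECKO class comparison had the embryo as a block, because both classes come from the same animal, and comparisons with Controls had sex as a covariate. Eed was left out of the tests and of the Benjamini-Hochberg adjustment (threshold 0.05). The tests were also run on simulated counts. The size of change that they could detect is not given here. Alternatives were DESeq2 1.42.0, limma 3.58.1, other scaling, no filter, thinning each cell to 50000 counts, other splits and cell filters, no block, and leaving out each embryo. No 2 kept cells had identical counts. Without molecular identifiers, reads are not independent molecules, so intervals and floors (3 counts) cover counting error and the sampling of cells within 1 embryo only.

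Named genes were the called ones, up to 8 per direction of smallest p with the same direction in 4 of 4 embryos, 5 CPM or more on average in the higher class and a named symbol, up to 3 per gene list of smallest p, and a set of PRC2, meiosis, pluripotency and earlier singled-out genes. The interstitial markers Pdgfra and Col3a1, the cells poor in germ cell markers and the genes shown in more detail were picked after their values were seen. The cells, the 10 CPM rule, the gene lists and the named set were chosen with earlier results of these data known.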

Additional observations from a re-analysis of the deposited data

Results flagged for a closer look

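Values were checked over 70 groups of 4 embryos for a value far from the other 3, by Dixon's test at the 95% level, which chance passes in about 1 of 20 groups. The test picked out 8. In the Eed-positive sum of XX embryo B, Scd2 was 358 CPM (58.6 to 106 in the others), Mest 304 CPM (17.4 to 37.6), Cd63 451 CPM (104 to 158) and the interstitial markers 525 CPM (0.441 to 12.2). In the Eed-low sum of XX embryo B, Kdm2b was 462 CPM (65.6 to 103) and Ezh2 113 CPM (35.0 to 44.4). In the Eed-low sum of XX embryo A, Nkx2-5 was lowest at 26.6 CPM (31.6 to 32.2), and the interstitial markers were 4.90 CPM (0 to 0.715). The Eed class difference of Lefty2 differed between XX and XY by 9.77 on the log2 scale.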

How the results depend on the processing

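In the ECKO class comparison edgeR called 0 genes under other scaling (RLE or total counts), thinning, all splits and cell filters and without any 1 embryo (339 to 529 at an unadjusted p under 0.05), but 2 with no filter on low counts and 91 with DESeq2. With no replicate block it called 0, so the pairing of classes by embryo changed no call. The Control class comparison gave 107 with DESeq2, and 0 without any 1 embryo. The class by sex comparison gave 10 with no filter, 111 with DESeq2, 0 after thinning and 0 to 185 without 1 embryo. Against Controls, Eed-positive cells had 5 calls with RLE, 704 with no filter, 687 with DESeq2, 0 to 10 without 1 embryo and 0 without the cells with under 5 germ cell markers, an alternative chosen after seeing the data. Eed-low cells had 444, 449 and 1 to 7 under no filter, DESeq2 and leaving out 1 embryo. Direction changed with any Eed count against none (log2) for Ncln (-0.95), Mt1 (-0.27), Tubb3 (-2.10), Kdm2b (-2.37), L3mbtl2 (-0.82), Dnd1 (-0.81), Id3 (-0.35), Phlda2 (-4.30), Uhrf1 (-1.58) and Rec8 (-2.22). With cells counted under 10 CPM left out it changed for Ncln (-0.11), Tubb3 (-1.23), Kdm2b (-1.68), L3mbtl2 (-0.67), Dnd1 (-0.54), Id3 (-0.13), Phlda2 (-3.97), Uhrf1 (-1.33) and Rec8 (-2.15), and at 25 CPM for Scd2 (0.38), Gtf2e1 (0.0049) and Ezh2 (0.067). The cause was not tested. Few cells per class and embryo, down to 1 in these splits, limit each sum.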

Other observations

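The genes whose CPM varied most like that of Eed across cells were found by the mean of Spearman's rho within the 4 ECKO embryos, over 62 cells and 7009 genes with a median rho of 0.0936. They were Hnrnpa2b1 (0.552), Polr1d (0.547), 0610007P14Rik (0.509), Sparc (0.507) and Rap1b (0.480). The measures share each cell's total and depth, and the values are a description. Hikeshi, a neighbour of Eed on its chromosome in the reference gene table of assembly GRCm38.p6 (listed as l7Rn6 in the deposited tables), had 97.3, 41.4, 85.0 and 60.9 CPM in the Eed-positive sums of XX A, XX B, XY A and XY B and 67.0, 44.2, 73.2 and 59.995 CPM in the Eed-low sums, so the transcript of this neighbour was present in both classes. The neighbours Ccdc81 and E230029C05Rik were at 0 in each sum.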
